A study of Caenorhabditis elegans with 2 samples.

Results

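Nucleolar ribosome biogenesis genes code for proteins that modify, cut and package ribosomal RNA in the nucleolus. Binding of DPL-1 was sought at 10 genes listed under this name, in chromatin immunoprecipitation and sequencing (ChIP-seq) peaks of first-stage (L1) larvae of Caenorhabditis elegans. The genes were rbd-1, fib-1, nol-1, nol-56, nol-58, pro-1, pro-2, pro-3, nst-1 and ncl-1, the last of which codes for a brake on the pathway. They were chosen by function with the peak lists of these data already in view, and the values that chose them are those given below, so the counts and signals are descriptions and carry no test. Of the 10 symbols, 9 matched the Ensembl annotation of assembly WBcel235 (build ce11), out of 19973 nuclear protein-coding genes. The symbol nol-1 did not match and was not counted. Promoter peaks were taken from the authors' list of peaks that met an irreproducible discovery rate (IDR) threshold, and a gene had one when such a peak's summit lay between 500 bp upstream and 200 bp downstream of one of its annotated transcript starts. By that rule 6 of the 9 genes had a peak, namely rbd-1, fib-1, nol-56, nol-58, pro-1 and nst-1, and 3 had none, namely pro-2, pro-3 and ncl-1. Over all protein-coding genes 14.3% had one.

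The experiment had 1 group of 2 biological replicates. Both were whole mixed-sex larvae of strain YL448, which carries the unc-119(ed3) mutation and the transgene vrIs83, in which the promoter of the intestinal esterase gene ges-1 drives DPL-1 with a C-terminal GFP and FLAG tag, next to a rescuing unc-119 copy. The promoter of the transgene is intestinal and the larvae were used whole. The antibody label reads dpl-1, and whether DPL-1 itself or its tag was precipitated is not stated. Signal from native DPL-1, if any, and from the tagged protein therefore cannot be told apart. No second condition, strain or stage was compared. A longer list of 30000 peaks, kept regardless of the IDR threshold, was used for each replicate and for the pooled data, and the IDR list held the 3726 pooled peaks of highest signal. The lists gave no read totals, so the depth behind a peak was unknown.

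DPL-1 is the DP subunit of C. elegans. It pairs with an E2F factor and belongs to the DREAM complex, which holds cell cycle genes repressed in resting cells. Ribosome production is tied to growth. RNA polymerase I makes the precursor rRNA in the nucleolus, and box C/D particles, which hold the methyltransferase fibrillarin, methylate it. Further factors cut the precursor and assemble the small and large subunits. In worms, loss of several of these factors arrests larval growth or disturbs the germline. Many worm genes are trans-spliced, so that an annotated start can lie downstream of the place where transcription begins.

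The sequences under the summits are shown for 5 of the 6 genes with a peak. Most of them share a short string, which was picked after these windows had been read. Each is the 101 bases centred on the pooled summit, on WBcel235, written 5′ to 3′ along the strand of the gene it is named for, and none overlaps an annotated exon or UTR. The window of nol-58 overlaps an annotated exon of the neighbouring gene zip-4 and is not shown. Capitals mark an E2F-type octamer in rbd-1 and the hexamer GTCTCG, on either strand, in the others shown.
rbd-1, IV:12724784-12724884, plus strand: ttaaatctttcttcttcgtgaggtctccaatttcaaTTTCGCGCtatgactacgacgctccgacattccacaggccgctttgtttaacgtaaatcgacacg
fib-1, V:15002255-15002355, minus strand: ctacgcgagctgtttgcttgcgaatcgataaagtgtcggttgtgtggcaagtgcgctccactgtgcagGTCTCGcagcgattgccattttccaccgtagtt
nol-56, V:10353168-10353268, minus strand: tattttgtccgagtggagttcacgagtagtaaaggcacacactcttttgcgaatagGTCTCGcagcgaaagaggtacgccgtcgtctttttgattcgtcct
pro-1, II:10542118-10542218, minus strand: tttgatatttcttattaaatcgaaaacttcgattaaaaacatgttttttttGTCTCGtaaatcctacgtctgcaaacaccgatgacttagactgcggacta
nst-1, II:8283358-8283458, minus strand: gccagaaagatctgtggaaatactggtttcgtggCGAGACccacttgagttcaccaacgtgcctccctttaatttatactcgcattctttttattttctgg

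The hexamer GTCTCG, on either strand and no farther than 50 bp from a summit, lay under 5 of the 6 peaks, all but that of rbd-1. Its first base was 18 bp from the summit at fib-1, 6 bp at nol-56, 0 bp at nol-58, 1 bp at pro-1 and 16 bp at nst-1. The string was picked after these windows had been read, so its count among the members describes how it was picked. Over all peaks, these included, it lay in 261 of 2262 promoter IDR peaks (11.5%) and in 382 of all 3726 IDR peaks (10.3%). Windows of the same length centred 150 bp upstream of all 29314 annotated starts held it in 3.13% of cases. Peaks at the promoters of cytosolic ribosomal protein genes held it in 28 of 65 (43.1%), and peaks at other ribosome biogenesis genes in 3 of 28. The windows of fib-1 and nol-56 shared a run of 14 bases on the same strand, aggtctcgcagcga, which holds the hexamer. No other pair of the 6 windows shared a run longer than 9 bases. The longest run of nol-58, whose product is in the same box C/D particle, was 9 bases with each of fib-1, nol-56 and nst-1. How often other pairs of IDR windows share such runs was not measured. In rbd-1 the related run aggtctc stops 1 base before the hexamer would be complete.

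Strings linked to E2F and DREAM were searched in the same windows. The octamers TTTCCCGC, TTTCGCGC, TTTGCCGC and TTTGGCGC, on both strands, lay within 50 bp of the summit in 1 of the 6 peaks, against 7.52% of promoter IDR peaks and 1.88% of the windows at starts. The match, TTTCGCGC in rbd-1, spans 14 to 7 bp before the summit, and since GCGCGAAA is its reverse complement, a search for that string finds the same site (3.32% of promoter IDR peaks). Within 100 bp a second gene, pro-1, had an octamer on the other strand, 52 bp past its summit, so that 2 of 6 held one, against 10.6% of promoter IDR peaks. The hexamer TTTGAA of the CHR element lay in 1 window, that of nol-58, against 27.1% of promoter IDR peaks and 29.0% of the windows at starts. The E-box CACGTG and the GATA-type hexamers TGATAA and AGATAA lay in 0 of the 6, against 4.38% and 7.87% of promoter IDR peaks. In the windows at starts their shares were 1.80% and 17.9%. These counts carry no test, and no match says only that these letters were not in the window. The GC content of the 6 windows ran from 32.7% at pro-1 to 53.5% at fib-1, with a median of 45.5% over promoter IDR peaks.

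rbd-1 had the strongest of these peaks. It codes for an RNA-binding protein with several RRM domains that is needed for processing of the small subunit rRNA. Its peak (WBGene00004315, peak IV:12724657-12725020) had a signal of 3227 and rank 9 of 3726 in the pooled list, with 2647 and rank 9 in replicate 1 and 595 and rank 10 in replicate 2. Signal is the authors' value per peak on a scale that the files do not state. Of all genes with a promoter peak, 99.7% had a lower signal. The pooled summit lay 152 bp upstream of the rbd-1 start, and the summit of replicate 2 lay 6 bp from it. The promoter also belongs to T23F6.3, which RefSeq annotates with a RING-type domain and which starts 226 bp away in the opposite direction, and the summit lay nearer to its start, at 74 bp.

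The 3 members that belong to the box C/D particle came next, and each had a peak. Over all protein-coding genes the share was 14.3%. Fibrillarin, coded by fib-1, is the methyltransferase of the particle, and the proteins of nol-56 and nol-58 form the scaffold on which it acts. Among them nol-58 had the highest signal, 1471 (rank 107), with 1184 in replicate 1 (rank 109) and 288 in replicate 2 (rank 102). Its peak (WBGene00020915, I:3266623-3266938) had its summit 309 bp upstream of the nol-58 start but 23 bp upstream of zip-4, a bZIP transcription factor gene that starts 332 bp away in the opposite direction. A further IDR peak stood 1006 bp upstream of nol-58, inside zip-4, with a signal of 388 (rank 602).

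The fib-1 peak (WBGene00001423, V:15002172-15002397) had a signal of 474 and rank 505, with 420.0 in replicate 1 (rank 484) and 58.2 in replicate 2 (rank 663). Its summit lay 82 bp upstream of fib-1 in the pooled list, and that of replicate 2 lay 26 bp nearer to the start. The gene on the other side, mut-15, is known for its part in small RNA silencing, and its start is 320 bp from that of fib-1 and 238 bp from the summit. The ribosomal protein gene rps-16 follows fib-1 on the same strand after 109 bp and had no IDR peak in its own promoter window.

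The nol-56 peak (WBGene00010627, V:10353116-10353327) was close to that of fib-1 in strength, with a pooled signal of 410.2 and rank 577. It had 346 in replicate 1 (rank 571) and 66.4 in replicate 2 (rank 605). The order of the pair turned over between replicates: fib-1 was above nol-56 in replicate 1 and below it in replicate 2. The summit lay 240 bp upstream of nol-56, in no other gene's promoter window. The body of nol-56 holds 4 annotated snoRNA genes on its own strand, the nearest of which starts 142 bp inside it, and no IDR summit lay in the gene body.

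**Figure D1:**
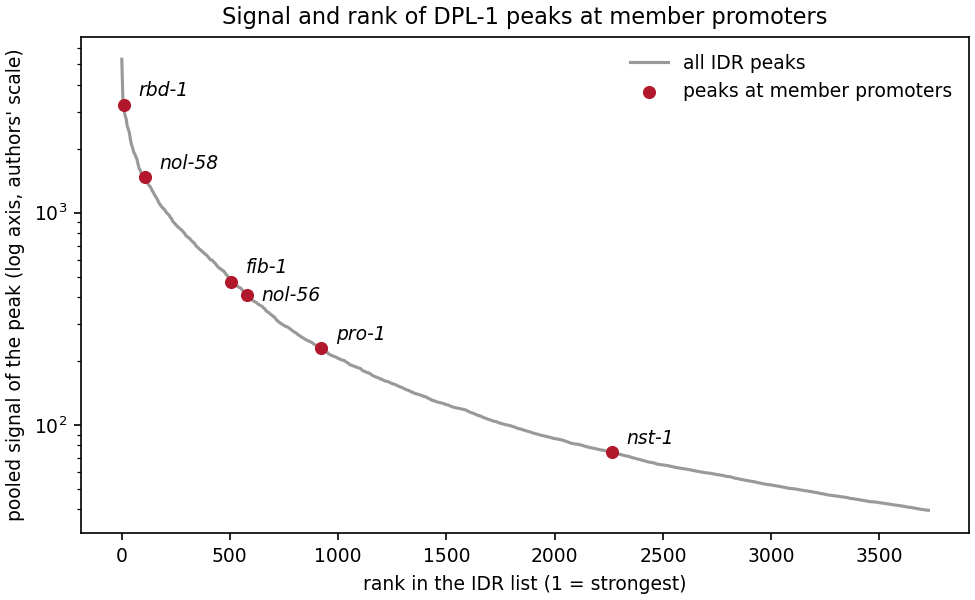
Pooled signal (log axis, authors' scale) against rank for the 3726 IDR peaks (grey line) with the peaks at the promoters of 6 nucleolar genes marked in red. The points run from rbd-1 at rank 9 with a signal of 3227 to nst-1 at rank 2263 with 74.1.

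Among the members for rRNA cutting and large subunit assembly, 2 of 4 had a peak, pro-1 and nst-1. The share of all protein-coding genes with one was 14.3%. PRO-1 is a WD-repeat protein of pre-rRNA processing whose loss lets germ cells proliferate in the wrong part of the gonad. Its peak (WBGene00004185, II:10542063-10542224) had a signal of 229.6 and rank 923, with 187 in replicate 1 (rank 946) and 37.9 in replicate 2 (rank 880). At 162 bp it was the narrowest of the 6, where the median IDR peak was 320 bp wide, and its summit lay 172 bp upstream of pro-1. The upstream neighbour mnk-1 lies on the same strand, 424 bp from pro-1, and did not share the peak.

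The nst-1 peak (WBGene00003821, II:8283248-8283567) was the weakest of the 6. The gene codes for nucleostemin, a GTP-binding nucleolar protein that worms need for larval growth. Its signal was 74.1 at rank 2263, with 60.55 in replicate 1 (rank 2337) and 15.1 in replicate 2 (rank 1812). It was the only one of the 6 outside the stronger 1863 IDR peaks, and the only one whose -log10 q (3.18) was below the maximum of 3.64 that 2162 IDR peaks share. The summit lay 200 bp upstream of nst-1 and 259 bp upstream of cct-4, a subunit gene of the cytosolic chaperonin, which starts 459 bp away in the opposite direction. The summits of the replicates lay 38 bp and 18 bp from the pooled one, both farther from nst-1.

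pro-2 and pro-3 had no IDR peak within their windows, and their best pooled peaks were near the floor of the lists. They code for homologs of the yeast assembly factors Noc2 and Sda1. For pro-2 (WBGene00007413) the best pooled peak, 295 bp upstream, had a signal of 11.1 at rank 20870 of 30000. It had 11.1 in replicate 1 (rank 14134) and no matching peak in replicate 2. For pro-3 (WBGene00012676) it lay 115 bp downstream of the start, with a signal of 10.3 at rank 23998, 7.79 in replicate 1 and 2.50 in replicate 2, where a separate peak 372 bp upstream had 3.58. The lowest signals kept in the lists were 9.07 pooled, 7.21 in replicate 1 and 2.24 in replicate 2. The nearest IDR peak to the pro-2 start was 5563 bp upstream.

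An IDR peak did lie upstream of pro-3, at the gene before it. Y39B6A.13 is on the same strand and ends 92 bp before pro-3. Its promoter held the peak of rank 470 (V:19119303-19119546), with a signal of 533, 434 in replicate 1 and 97.1 in replicate 2. That summit was 1 bp upstream of the Y39B6A.13 start and 1014 bp upstream of pro-3, so it fell outside both the 500 bp and the 1000 bp window of pro-3. Whether the pair is transcribed as 1 unit is not recorded in the annotation used here.

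ncl-1 also lay outside the threshold, though nearer to it than pro-2 and pro-3. Its product, a B-box and NHL-domain protein, is known to hold down fibrillarin and rRNA levels, and mutants have enlarged nucleoli, so it is a brake on the pathway and no assembly factor. Of its 8 annotated starts, the first had the best pooled peak (WBGene00003559, III:7719373-7719692), 196 bp upstream, with a signal of 29.5 at rank 4758. It had 19.4 in replicate 1 (rank 6199) and 7.44 in replicate 2 (rank 3959). The last IDR peak had a signal of 39.5, so nst-1 at 74.1 was the nearest gene inside and ncl-1 at 29.5 the nearest outside. Other promoter windows of ncl-1 held pooled peaks with signals of 15.7, 14.5 and 13.4.

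IDR peaks lay upstream of ncl-1 and inside the gene, but in none of its promoter windows. One stood 1212 bp upstream of the first start, with a signal of 97.9 (rank 1808), 86.5 in replicate 1 and 8.82 in replicate 2. A further 3 lay inside the gene, outside its exons, with signals of 61.9, 59.3 and 51.2. They lay 8877, 10117 and 1296 bp past the first start. The one with a signal of 59.3 lay in the promoter window of ZK112.4, a gene within ncl-1. These 3 rested on replicate 1, with signals of 69.2, 58.3 and 47.0 there. In replicate 2 they had 2.40, no match and 2.57, near the lowest value of that list.

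**Figure D2:**
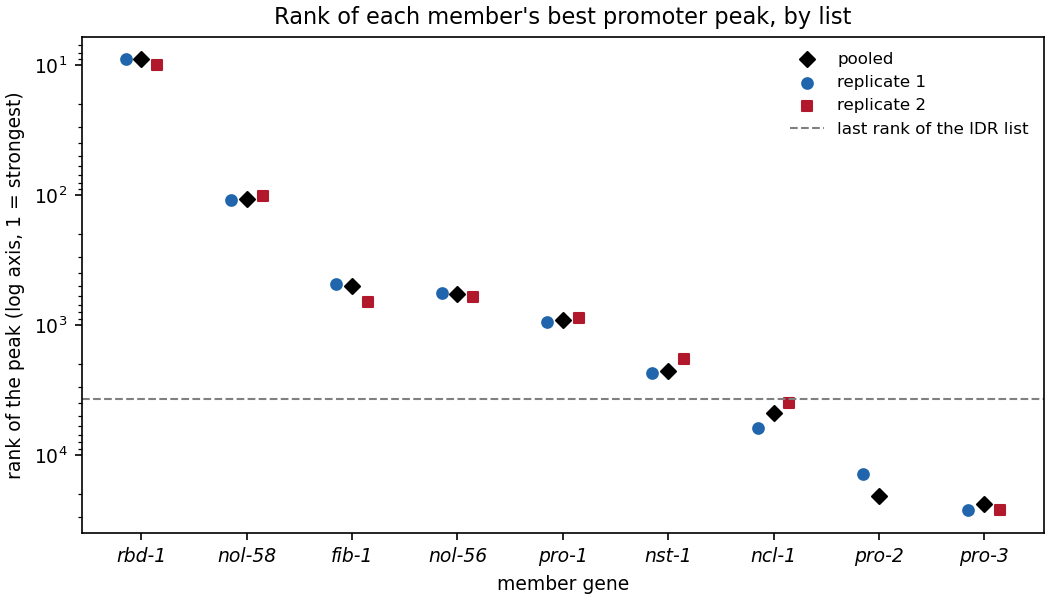
Rank of each gene's best promoter peak in the pooled list (black) and of the peak matched to it in replicate 1 (blue) and replicate 2 (red), on a log axis with the strongest at the top, with the last rank of the IDR list dashed. The 6 genes above the line stay above it in all 3 lists, and pro-2 has no point for replicate 2. In replicates 1 and 2, fib-1 has ranks 484 and 663, and nst-1 has ranks 2337 and 1812.

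The 6 peaks were found in both replicates. Every one had a summit within 100 bp in each replicate list, where 86.7% of all IDR peaks did. Signals were higher in replicate 1 by a factor of 4.0 (nst-1) to 7.21 (fib-1). The median over matched IDR peaks was 5.32 (5th to 95th percentile 2.79 to 14.3), and of the 6 only fib-1 lay above it. The sum of both replicates was 0.999 times the pooled signal at the median peak, and replicate 1 gave 84.2% of that sum. The rank order rbd-1, nol-58, then fib-1 and nol-56, then pro-1, then nst-1 was the same in both, apart from the swap of fib-1 and nol-56. The strongest signal was 43.5 times the weakest.

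Several of these genes shared their peak with a divergent neighbour. The summits of rbd-1, fib-1, nol-58 and nst-1, 4 of 6, lay in the promoter windows of 2 genes that start in opposite directions 226 to 459 bp apart, and those of nol-56 and pro-1 in 1. Counted in the same way per gene, 1280 of all 2852 genes with a peak (44.9%) had their best peak in the windows of 2 or more genes, and with 6 genes nothing is read from the difference. All 6 summits were upstream of the member's start, by 82 to 309 bp with a median of 186 bp, against a median of 174 bp over all genes with a peak, of which 94.5% had the summit upstream. A peak between divergent starts does not show which of the genes it belongs to. When each summit was given only to its nearest start, rbd-1 lost its peak to T23F6.3 and nol-58 lost its peak to zip-4.

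**Figure D3:**
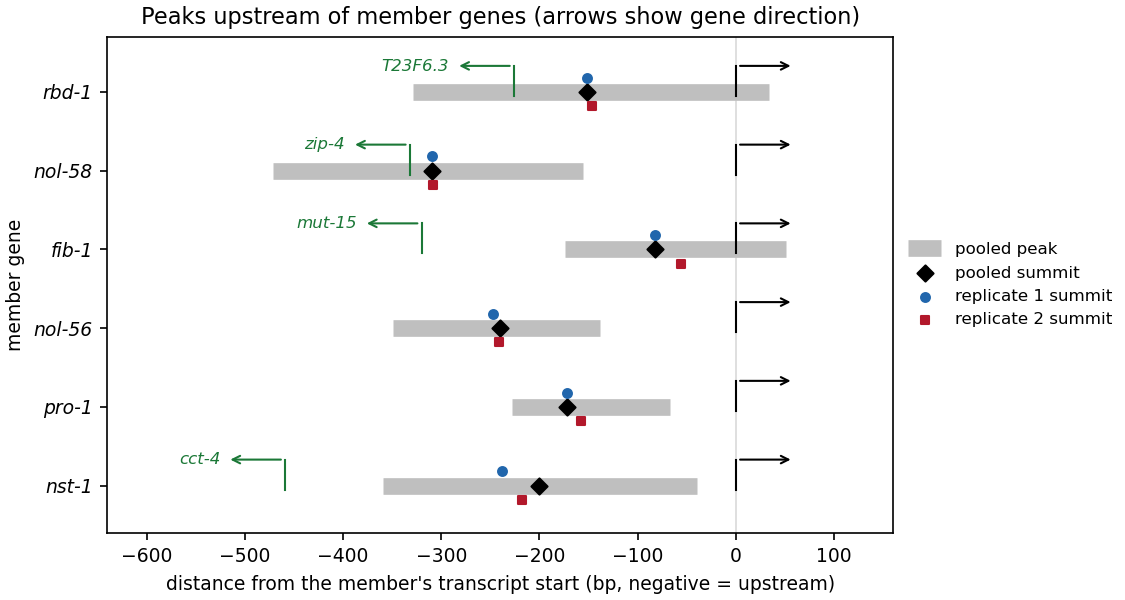
Pooled peak intervals (grey), pooled summits (diamonds) and the summits of replicate 1 (blue circles, drawn above) and replicate 2 (red squares, drawn below) by distance in bp from each gene's start, with arrows for the direction of the gene (black) and of the gene sharing its promoter (green). The summit lies 23 bp from the start of zip-4 and 309 bp from that of nol-58, and 82 bp from that of fib-1.

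The count of genes with a peak was 5 or 6 under every rule tried, though with nearest starts the genes were not all the same. From 1000 bp upstream it was 6 of 9, against 17.3% of all genes, and with any overlap of peak and window it was 6 of 9, against 15.3%. Using the 3726 strongest peaks of 1 replicate alone it was 6 of 9 in replicate 1 (14.3% of all genes) and in replicate 2 (12.8%). Among the stronger 1863 peaks it was 5 of 9, without nst-1 (9.36%). With nearest starts it was also 5 of 9 (13% of all genes), but a different set. That set lacked rbd-1 and nol-58, the strongest of the 6. In it ncl-1 gained an intronic peak of rank 2607 that lay 822 bp past an internal start. In replicate 2 that peak had a signal of 2.40, near the lowest value of that list. The gene nsun-1 (WBGene00021073), which RefSeq names a 26S rRNA cytosine methyltransferase, was added after its values were seen, since it may be the gene formerly called nol-1. That older name is not in the annotation used here. nsun-1 had an IDR peak 294 bp upstream (II:476074-476393) with a signal of 80.9 and rank 2107, 61.8 in replicate 1 and 18.5 in replicate 2. The gene W07E6.5, on the opposite strand, spans this peak. Counting nsun-1 in place of nol-1 gives 7 of 10 genes with a peak, against 14.3% of all genes.

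Other genes of the pathway were read from a list of 55 symbols, of which 47 matched. Of these, 28 had a promoter IDR peak and 19 had none, where 14.3% of all protein-coding genes had one. When each summit went to its nearest start alone, 19 of the 47 had a peak, against 13% of all genes. The median signal of the 28 was 192. The 6 nucleolar genes had a median of 442, cytosolic ribosomal protein genes, 68 of 78 with a peak, had 340.0, and all 2852 genes with a peak had 154. The ratio of 442 to 154 was 2.87, and it was 1.63 among the stronger 1863 peaks and 1.81 when summits went to their nearest start alone. Of the 28 genes, 14 shared their peak with another gene, near the 44.9% of all genes with a peak.

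The groups by role are small, and their shares were not compared by a test. Each count stands beside the 14.3% of all protein-coding genes with a promoter peak. Partners in rRNA modification had a peak in 4 of 6: the pseudouridine synthase gene dkc-1 (signal 382, shared with ran-1), nath-10, the NAT10 acetyltransferase (244, shared with dhs-2), the box C/D protein gene snu-13 (236, shared with rsp-7) and garr-1 (138). nola-3 and rrp-8 had none. RNA polymerase I had a peak in 5 of 7, led by the initiation factor gene tif-1A (372) and the subunit gene rpac-19 (190.4). The largest subunit gene rpoa-1 (87.8) and rpoa-12 (71.4) had lower signals, and rpoa-49 and rpac-40 had none.

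Small subunit assembly had a peak in 6 of 8, with nol-6 at 899 (rank 241), the helicase gene rha-2 at 533, nol-10 at 207 (shared with cec-5) and the kinase gene riok-1 at 106. riok-2 and tsr-1 had none. Large subunit assembly had a peak in 5 of 11, with lpd-6 at 984 (rank 214, shared with dscc-1), the pescadillo gene lpd-7 at 269.6 (shared with rpl-9), eif-6 at 237 (shared with pbs-2) and the GTPase gene nog-1 at 193 (shared with T07A9.15). Among the 6 without a peak were ngp-1, rrp-1, wdr-12 and sbds-1. The exosome and exonuclease group had a peak in 5 of 12, where exos-2 stood out with a signal of 1309 at rank 135, above every gene of the list and below rbd-1 and nol-58. Next were exos-4.1 at 274 (shared with dli-1 and tin-9.2), the helicase gene mtr-4 at 119 and exos-3 at 115 (shared with nlp-4), and xrn-2, crn-3, dis-3 and exos-1 were among the 7 without. ruvb-2 (713), the nucleolin gene nucl-1 (136) and ruvb-1 (89.5, shared with tofu-1) all had a peak.

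**Figure D4:**
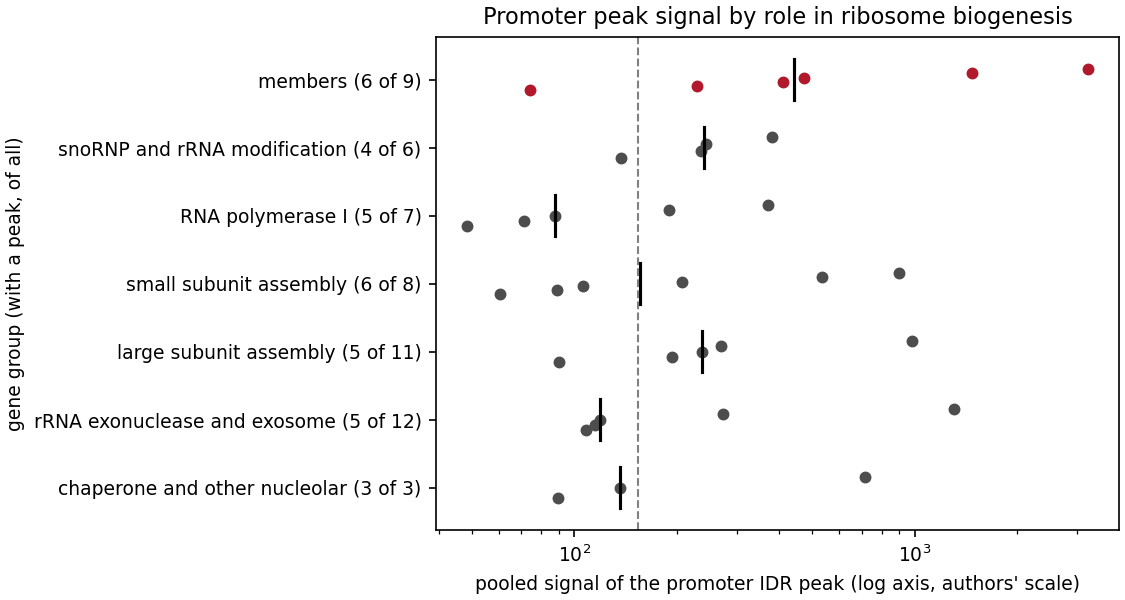
Pooled signal of the promoter IDR peak (log axis, authors' scale) for each gene with a peak, by group, with the median of each group as a black bar and the median over all genes with a peak (154) dashed. The labels give genes with a peak out of all matched, and the red points of the nucleolar genes reach from 74.1 to 3227.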

How the data were processed

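The samples were 2 biological replicates in 1 group, with replicate numbers from the labels. The authors deposited narrowPeak lists, made per the file descriptions from alignments and a control. Which peak caller was used, and its version, is not given in the sources used here. For each peak the deposited signal has no stated scale, and the deposited -log10 q is capped, so peaks were ranked by signal within each list. Lists on ce10 and the control library were not analysed here.

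Positions were compared with Ensembl release 115 on WBcel235, whose chromosomes are those of ce11, leaving out the mitochondrial genome, and sequence came from the RefSeq copy of the same assembly. A peak counted as matched in another list if a summit there was at most 100 bp away. Python 3.11.15, numpy 2.4.6, pandas 2.3.3 and matplotlib 3.10.9 were used, and the assignment of summits to genes was tested on simulated data. No significance test was run. All members, genes sharing or flanking their peaks and up to 4 genes with and without a peak per role were named. nsun-1 and GTCTCG were added after the values were seen. The genes and lists were chosen with earlier results of these data known.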

Additional observations from a re-analysis of the deposited data

How the results depend on the processing

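The count of nucleolar genes with a peak (6) stayed within 1.5 times under each alternative, as did the count of other ribosome biogenesis genes (28). With nearest starts the nucleolar genes counted were a different set, without rbd-1 and nol-58 and with ncl-1. Over all genes the count was 2852, and 1869 with the stronger 1863 peaks. The ratio of the genes' median signal to that of all genes with a peak was 2.87, and it was 1.63 among the stronger peaks, 1.81 with nearest starts and 2.20 to 2.94 with 1 replicate left out. All 6 peaks matched in both replicates within 50 bp, within 200 bp and by overlap. With 100 bp on each side, the E2F-type octamers lay in 2 of the 6 windows and in 387 IDR peaks (10.4%), TTTGAA in 1475 IDR peaks (874 within 50 bp) and the GATA-type hexamers in 821 (355). With 25 bp, IDR peaks holding the octamers numbered 127 (276 within 50 bp), GCGCGAAA 53 (116), TTTGAA 284, CACGTG 112 (223) and the GATA-type hexamers 161. Wider or narrower windows hold more or fewer strings by construction, and the cause of the other shifts was not tested. GTCTCG, picked from these windows, lay in 5 of the 6 at each width, and in 250 IDR peaks with 25 bp, 382 with 50 bp and 515 with 100 bp. No paired analysis was possible because there is 1 group and no test. Read depth was unknown, so whether pro-2 and pro-3 lack binding or it was not detectable cannot be told apart.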
